A study of Mus musculus with 4 samples.

Results

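The 10 genes described here act in mitosis, the step in which a dividing cell condenses, aligns and separates its chromosomes: Mki67, Top2a, Ccna2, Ccnb1, Cdk1, Bub1, Aurkb, Plk1, Kif11 and Prc1. Each was taken from the deposited table as the brightest probe set that carries its symbol alone, and 9 of the 10 were measured in this way, out of 19296 genes in all. Ccnb1, a cyclin partner of Cdk1, was not among them and its level is not analysed here. The values are log2 expression, and a background level of log2 6.58, set on olfactory receptor genes, served to separate genes with signal from genes without.

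The samples were whole ureters, the muscular tubes that carry urine from kidney to bladder, from male mice of a mixed 129Sv/C57BL6 strain. The knockout group held 2 mice of genotype miR-143/145-/-, aged 2.5 months, whose kidneys were hydronephrotic, that is, distended by retained urine. The wild type group held 2 mice of genotype miR-143/145+/+, aged 4.5 months, with normal kidneys. Genotype, age and kidney state changed together and cannot be told apart, and so each difference below is one between these groups of mice. Each mouse gave 1 array, and nothing was pooled.

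Mitotic genes are switched on late in the cell cycle and are nearly silent in resting cells, so in tissue their RNA comes mostly from the small number of cells that are dividing. In adult ureter both the smooth muscle and the urothelium, the lining epithelium, turn over slowly. Cdk1 with cyclins A and B drives entry into mitosis, Plk1 and Aurkb are kinases that guide the spindle and the chromosomes, and Bub1 belongs to the checkpoint that waits for all chromosomes to attach. Because a piece of ureter was measured whole, fewer dividing cells and less of an RNA in each dividing cell cannot be told apart.

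The promoters of these genes are known for a shared layout, in which CCAAT boxes, bound by the factor NF-Y, lie upstream of a cell cycle genes homology region, or CHR, the element through which the DREAM complex represses and B-Myb with FoxM1 activates mitotic genes. The 4 promoters that follow are those of Mki67, the usual marker of dividing cells, Top2a, Cdk1, the central kinase, and Kif11, the gene of the 9 whose groups did not overlap. They are RefSeq promoters of build GRCm38.p6, from 250 bases before to 50 bases after the transcription start, written 5′ to 3′ on the strand of the gene. Capitals mark CCAAT, read on the opposite strand as ATTGG, and the CHR letters, which are TTTGAA, read on the opposite strand as TTCAAA, and the form TTTAAA, which reads alike on both strands. In these 4 promoters no match of one motif overlapped a match of the other. Mki67 lies at chr7:135716330-135716629 on the minus strand, Top2a at chr11:99024140-99024439 on the minus strand, Cdk1 at chr10:69352863-69353162 on the minus strand and Kif11 at chr19:37376132-37376431 on the plus strand.
Mki67: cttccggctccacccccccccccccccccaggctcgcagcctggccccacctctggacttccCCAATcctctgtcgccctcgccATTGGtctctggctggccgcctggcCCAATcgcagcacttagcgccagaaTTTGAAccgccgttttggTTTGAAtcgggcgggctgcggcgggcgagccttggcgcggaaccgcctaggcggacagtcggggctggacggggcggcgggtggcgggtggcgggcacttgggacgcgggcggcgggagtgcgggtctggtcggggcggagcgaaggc
Top2a: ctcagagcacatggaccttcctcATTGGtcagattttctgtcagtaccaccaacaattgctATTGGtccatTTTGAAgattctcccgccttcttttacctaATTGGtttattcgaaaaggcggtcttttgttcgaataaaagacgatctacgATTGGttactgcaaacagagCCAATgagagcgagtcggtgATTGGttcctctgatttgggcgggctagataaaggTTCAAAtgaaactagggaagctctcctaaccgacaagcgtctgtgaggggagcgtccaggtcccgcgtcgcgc
Cdk1: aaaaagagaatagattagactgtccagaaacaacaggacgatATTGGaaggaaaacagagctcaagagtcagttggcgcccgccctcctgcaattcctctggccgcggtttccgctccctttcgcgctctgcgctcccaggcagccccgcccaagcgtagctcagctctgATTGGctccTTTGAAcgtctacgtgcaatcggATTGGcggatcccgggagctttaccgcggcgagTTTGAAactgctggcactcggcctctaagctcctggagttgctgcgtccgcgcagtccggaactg
Kif11: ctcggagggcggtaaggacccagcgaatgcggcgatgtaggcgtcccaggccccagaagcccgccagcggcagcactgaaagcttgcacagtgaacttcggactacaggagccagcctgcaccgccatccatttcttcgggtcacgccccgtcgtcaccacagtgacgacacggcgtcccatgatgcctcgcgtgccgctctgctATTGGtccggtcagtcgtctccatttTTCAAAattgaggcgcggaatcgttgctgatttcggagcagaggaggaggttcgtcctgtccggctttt

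In Kif11, TTCAAA began 19 bases before the start and ATTGG began 45 bases before it. Cdk1 held TTTGAA at 71 and 15 bases before the start, and ATTGG at 208, 80 and 48 bases before it. In Mki67 the CHR letters began 116 and 98 bases before the start, downstream of 3 CCAAT matches at 188, 166 and 141 bases before it. Top2a held 6 CCAAT matches, the most of the set, with CHR letters at 179 and 23 bases before its start. Promoter sequence was at hand for 8 of the 10 genes, Ccnb1 included. Of these 8, 7 held CHR letters and all 8 held CCAAT, with Bub1 the one without CHR letters in this window. Over all 27025 genes of the promoter table, 27.8% held CHR letters, 37.9% held CCAAT and 10.9% held both. A match of these letters is a description and does not show that a factor binds there.

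The deleted microRNA genes were checked against the labels of the mice. Mir145a measured 4.60 and 5.02 on the knockout arrays, both below background, against 8.28 and 8.42 on the wild type arrays. Mir143 differed less, with 6.48 and 6.53 on the knockout arrays, just below background, against 7.64 and 7.85 on the wild type arrays. Over all genes, 459 of 19296, or 2.38%, passed an adjusted p of 0.05 in the limma fit of knockout against wild type, 367 of them higher (1.90%) and 92 lower (0.477%). With arrays centred on their medians the split was 245 higher and 148 lower, and this moved the median difference of all genes to -0.09 from -0.02. Array medians lay between 7.81 and 7.89. The number of arrays, not a depth of counting, limits the precision.

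None of the 9 mitotic genes passed the test in knockout ureter. In the limma fit 0 of 9 were called, against 2.38% of all genes, and 0 of 9 had an unadjusted p under 0.05, against 26.5% of all genes. Differences, knockout minus wild type, ran from -0.22 for Cdk1 to 0.23 for Bub1 on the log2 scale, with a median of 0.07. Of the 9, 6 were higher and 3 lower. Mki67, Ccna2, Cdk1, Aurkb and Plk1 lay above background in both groups on average, while Top2a, Bub1, Kif11 and Prc1 lay below it in both.

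**Figure D1:**
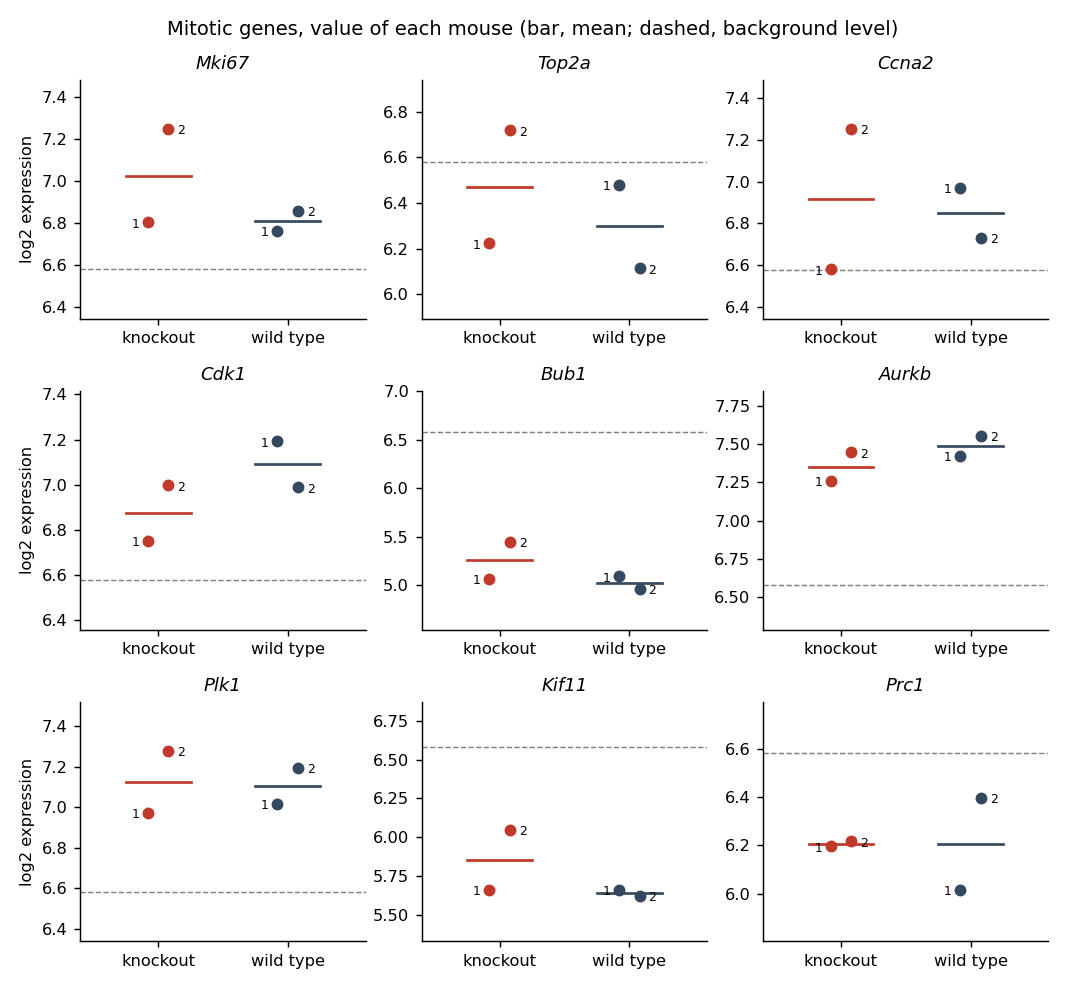
Log2 expression (y axis, a scale of its own in each panel) of the 9 mitotic genes in each mouse, with the knockout mice left of the wild type mice. Points are mice with their replicate number, short bars are group means and the dashed line is the background level of 6.58. Bub1, Kif11 and Prc1 lie below the line in all 4 mice, and knockout replicate 2 lies above knockout replicate 1 in every panel.

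The general markers of division come first. Mki67 encodes the Ki-67 protein, which coats mitotic chromosomes. It measured 6.80 and 7.25 in the knockout mice, against 6.76 and 6.86 in the wild type mice. The lower knockout value fell between the wild type values, so the groups overlapped, and the difference was 0.22 (SE 0.16, limma adjusted p = 0.433). As a fold this was 1.16, with a 95% interval of 0.887 to 1.52. Top2a encodes topoisomerase II alpha, which untangles sister chromosomes. It measured 6.22 and 6.72 in the knockout mice, against 6.48 and 6.11 in the wild type mice. Knockout replicate 2 was the only mouse in which Top2a exceeded the background, and no fold is given. A second and dimmer probe set of Top2a, far below background, measured 3.93 and 3.77 in knockout and 3.72 and 3.50 in wild type.

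The Cdk1 engine followed no single direction. Cdk1, the kinase that starts mitosis, measured 6.75 and 6.997 in knockout ureter, against 7.19 and 6.99 in wild type ureter. Its group means were 6.87 ± 0.17 in knockout and 7.09 ± 0.15 in wild type (SD, n = 2 each), a difference of -0.22 (SE 0.14, limma adjusted p = 0.358), and the groups overlapped, with knockout replicate 2 just above wild type replicate 2. Ccna2, the cyclin A that pairs with Cdk2 and Cdk1, measured 6.58 and 7.25 in knockout, against 6.97 and 6.73 in wild type. The knockout mice enclosed both wild type mice, and the 0.67 between them was the widest gap between mice of one group among the 9 genes. The difference of the Ccna2 means was 0.07 (SE 0.22, limma adjusted p = 0.872).

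The kinases Plk1 and Aurkb lay above background on all 4 arrays, with overlapping groups. Plk1, which matures the centrosomes and helps to activate Cdk1, measured 6.97 and 7.28 in knockout mice, against 7.02 and 7.19 in wild type mice. Wild type again lay inside the knockout range, and the difference was 0.02 (SE 0.15, limma adjusted p = 0.945). Aurkb, the kinase of the chromosomal passenger complex, measured 7.26 and 7.45 in knockout, against 7.42 and 7.56 in wild type. Its groups overlapped with a difference of -0.14 (SE 0.13, limma adjusted p = 0.524). Its fold of knockout over wild type had a 95% interval of 0.740 to 1.12.

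The genes of the checkpoint and the spindle were dim. Bub1, a kinase that recruits checkpoint proteins to kinetochores, measured 5.07 and 5.45 in knockout, against 5.09 and 4.97 in wild type. Kif11, the motor that pushes spindle poles apart, measured 5.66 and 6.05 in knockout, against 5.66 and 5.62 in wild type. Kif11 was the only one of the 9 whose groups did not overlap, and knockout replicate 1 exceeded wild type replicate 1 by less than 0.01. Groups did not overlap for 60.0% of all genes, with knockout higher for 28.0% and lower for 32.0%, so 1 of 9 is below the share found in general. Prc1, which bundles the midzone microtubules during cytokinesis, measured 6.20 and 6.22 in knockout, against 6.02 and 6.40 in wild type. For Bub1, Kif11 and Prc1 all 4 arrays lay below background, so their values carry no fold, and their differences of 0.23, 0.21 and -0.00 had limma adjusted p values of 0.377, 0.404 and 0.998.

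These intervals say how large a change could have been missed. Among the 5 genes above background, the interval of the fold reached lowest for Cdk1, at 0.684, and highest for Mki67, at 1.52. The smallest log2 difference that passed the threshold anywhere on the arrays was 0.59. With 2 mice a group, no gene with a smaller difference was called, and failing the test does not show that the groups are alike. RMA also compresses differences between dim probe sets.

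**Figure D2:**
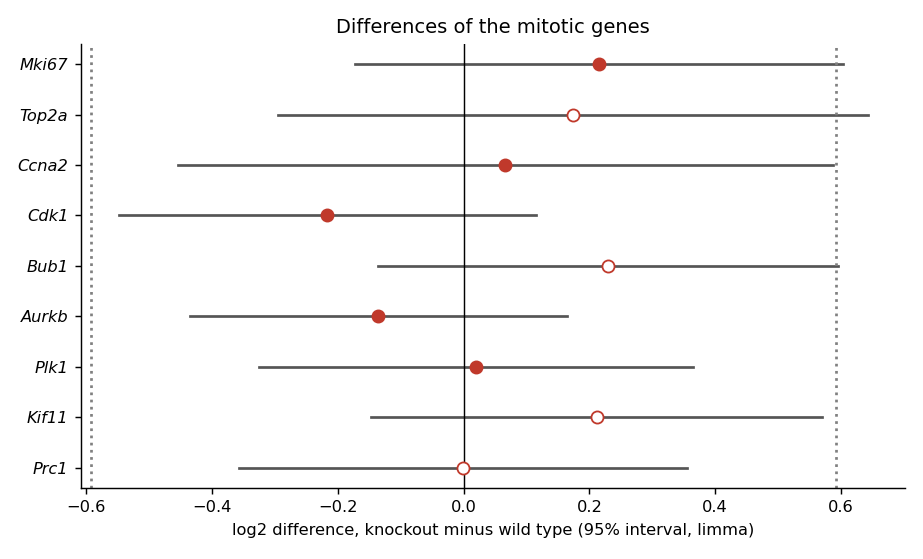
Log2 difference, knockout minus wild type (x axis), of the 9 mitotic genes with the 95% interval of the limma fit. Filled points are genes above background in at least 1 group and open points are genes below it in both. Dotted lines at 0.59 and its negative mark the smallest difference called among all genes, and all 9 points lie between -0.22 and 0.23 with intervals that include 0.

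The clearest pattern among the 9 genes lay between the knockout mice. All 9 were higher in knockout replicate 2 than in knockout replicate 1, whereas 55.7% of all genes were. Prc1, below background, differed there by only 0.02. Knockout replicate 2 was the highest of the 4 mice for 6 genes: Mki67, Top2a, Ccna2, Bub1, Plk1 and Kif11. Over all genes it was the highest for 29.4%. Of the 6, Bub1 and Kif11 lay below background in all 4 mice, and Top2a did in both group means. With each gene set to its own mean over the 4 mice, the 9 genes averaged -0.14 and 0.21 in the knockout mice, and -0.02 and -0.04 in the wild type mice. On this average the knockout mice thus stood on either side of the wild type mice, which lay close together. Gene by gene, both wild type mice lay between the knockout mice only for Ccna2 and Plk1. The median gap between mice of one group was 0.38 in knockout and 0.18 in wild type for the 9 genes, and 0.13 and 0.14 for all genes. This compares single mice, so there is no test of it.

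Of the 113 genes in 5 other mitotic lists, 75.2% were higher in knockout replicate 2 than in knockout replicate 1, with mean deviations of -0.02 and 0.09 in the knockout mice and -0.03 and -0.04 in the wild type mice. Here knockout replicate 1 lay close to the wild type mice on average, while knockout replicate 2 was highest, as for the 9 genes. The 113 include 4 genes that passed as higher in knockout, described below, and the averages without them were not taken. Markers of other cells differed between the knockout mice too. Of 6 proximal tubule markers, which belong to kidney, all were above background in knockout and 5 in wild type, and the list averaged 10.01 and 7.89 in knockout replicates 1 and 2, against 7.50 and 8.44 in wild type. The 8 urothelium markers, all above background in both groups, averaged 12.05 and 12.41 in knockout, against 11.51 and 11.76 in wild type. The 6 adipocyte markers, all above background in both groups, averaged 12.42 and 11.92 in knockout, against 12.78 and 12.64 in wild type. The 7 lymphocyte markers averaged 6.32 and 6.28 in knockout, against 6.60 and 6.84 in wild type, so they lay close together in the knockout mice, with Cd3g, Cd79a and Ms4a1 below background in both groups. The 1012 olfactory receptor genes that set the background deviated by -0.10 and 0.04 in knockout mice, and by 0.03 and 0.03 in wild type mice, so these dim genes also read lowest in knockout replicate 1. The part of these signals in the pattern of the mitotic genes was not tested.

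**Figure D3:**
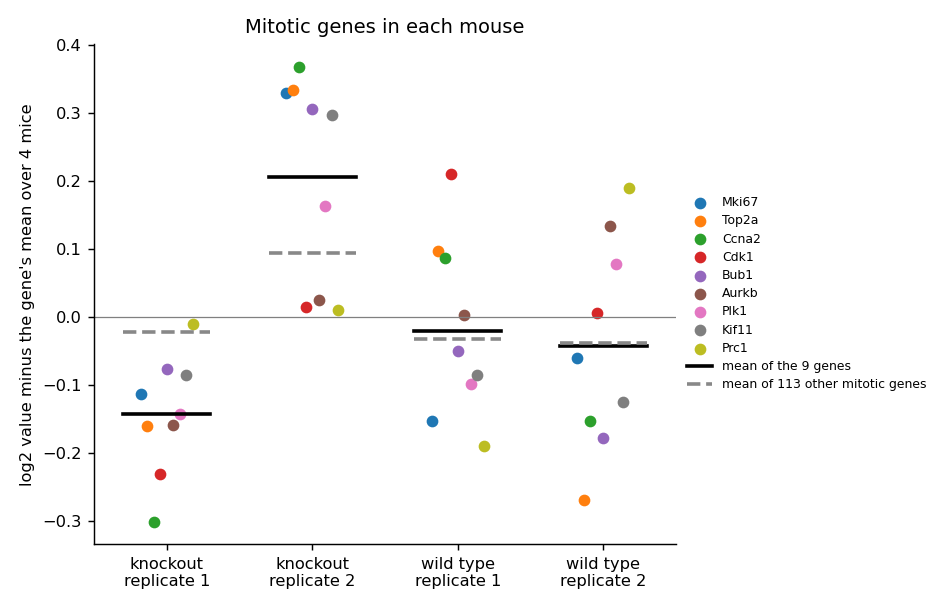
Log2 value of each mitotic gene minus that gene's mean over the 4 mice (y axis), by mouse. Coloured points are the 9 genes, black bars their mean and dashed grey bars the mean of 113 genes in 5 other mitotic lists. The black bar is lowest in knockout replicate 1, at -0.14, and highest in knockout replicate 2, at 0.21, with the wild type mice between them.

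The result of the whole set depended on which knockout mouse was kept. Without knockout replicate 1 the median difference of the 9 genes was 0.40, 7 were higher, and 5 of 9 had an unadjusted limma p under 0.05, against 23.9% of all genes in that fit. Of the 9, 0 passed the adjustment, with a smallest adjusted p of 0.137, whereas 9.04% of all genes passed. Without knockout replicate 2 the median was -0.07, 7 were lower, 0 had an unadjusted p under 0.05 and 0 passed. With 1 knockout mouse left in, the fit assumes that it varies as the wild type mice do.

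Genes whose 4 values followed the mean pattern of the 9 most closely were Bcl9, Eif4ebp2, Tma16, Spryd4 and Ddx58. Each gene was set to its mean over the mice, and the distance, taken over 4 mice, was 0.026 for Bcl9 and 0.042 for Ddx58. The pattern itself spanned 0.35 from lowest to highest mouse, and 4 points admit many such genes by their number alone.

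Around the 9 genes, 188 other cell cycle genes in 9 lists were measured, of which 131 lay above background in at least 1 group. Of the 188, 6 passed (3.19%, against 2.38% of all genes): Cenpq, Pttg1, Wee1, Cks2 and Mcm6 rose in knockout ureter, and Cdkn2c fell. The median difference of the 188 was 0.05, against -0.02 for all genes. Within the 5 mitotic lists 4 of 113 passed, all of them higher, with a median of 0.03. Without wild type replicate 1 or wild type replicate 2 all 6 calls were lost, as was every call on the arrays, with adjusted p values of the 6 from 0.183 to 0.241. Without knockout replicate 1, 13 of the 188 passed, the 6 among them, a share of 6.91% against 9.04% of all genes in that fit. Urothelium markers were higher in knockout too, all 8 with unadjusted limma p values under 0.05 (26.5% of all genes), and their median difference was 0.64. Trp63 was the 1 of them that passed (limma adjusted p = 0.0486). Smooth muscle markers were higher for 5 of 6, with a median difference of 0.32, and proximal tubule markers for 6 of 6, with 0.99. On the tubule list average, however, knockout replicate 2, at 7.89, lay below wild type replicate 2, at 8.44, and knockout replicate 1 stood at 10.01. Lymphocyte, macrophage, adipocyte, endothelium, erythroid and germ cell markers had negative median differences. Of the 6 endothelium markers 2 were higher, and only 2 erythroid markers were tested. Of the 6 germ cell markers 4 lay below background in both groups. The germ cell median was -0.10, against -0.12 for all genes below background in both groups. The part of these cell types in the rises was not tested.

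**Figure D4:**
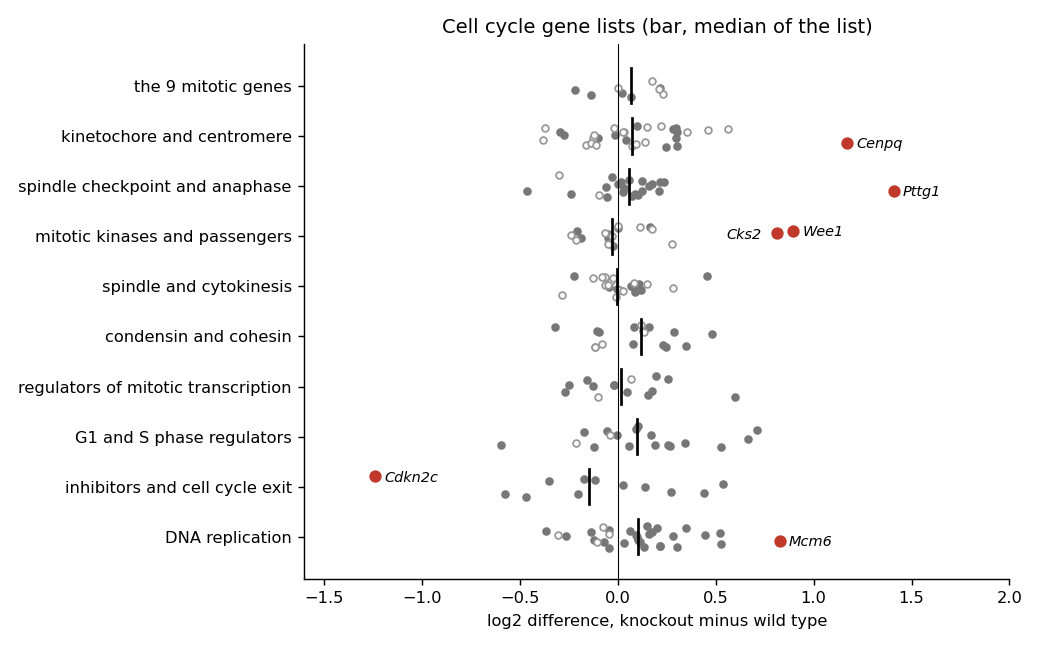
Log2 difference, knockout minus wild type (x axis), of the 9 mitotic genes and of 188 genes in 9 other cell cycle lists. Red points passed an adjusted p of 0.05 and are named, grey points did not, open points lie below background in both groups, and black bars are list medians. The 6 red points lie from -1.24 for Cdkn2c to 1.41 for Pttg1, away from list medians between -0.15 and 0.12.

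The rises in the mitotic lists began with Pttg1, which encodes securin, the protein that holds separase inactive until anaphase. Pttg1 measured 8.81 and 9.51 in knockout, against 7.62 and 7.89 in wild type. Both knockout mice lay above both wild type mice, and Pttg1 rose 2.65-fold (log2 difference 1.41, SE 0.23, limma adjusted p = 0.0394). Its partner Espl1, separase itself, measured 6.52 and 6.65 in knockout, against 6.99 and 7.11 in wild type, and did not pass (limma adjusted p = 0.0809). In the list of checkpoint and anaphase genes 1 of 23 passed, against 2.38% of all genes, and the median was 0.06. The calls of Pttg1 and Wee1 were lost with a further quantile normalization, at adjusted p = 0.0570 and 0.0531.

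Cenpq, a subunit of the inner kinetochore, measured 7.003 and 7.15 in knockout, against 5.97 and 5.84 in wild type. Both wild type values lay below background, so Cenpq was at least 1.41-fold higher in knockout, the knockout mean being set against the background level (limma adjusted p = 0.0150). Of the 31 kinetochore and centromere genes it was the one that passed, where 2.38% of all genes did. Of these 31, 18 lay below background in both groups. Zw10, which brings checkpoint proteins and dynein to kinetochores, differed by 0.30 (limma adjusted p = 0.159). The list median was 0.07.

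Wee1 and Cks2 passed in the list of mitotic kinases and passengers, where 17 of 19 genes did not and the median was -0.03. Over all genes 2.38% passed. Wee1 encodes a kinase that holds Cdk1 inactive and so delays mitosis, a role opposite to that of Cdk1. It measured 9.41 and 9.52 in knockout, against 8.72 and 8.41 in wild type, and rose 1.86-fold (limma adjusted p = 0.0368). Cks2, a small subunit that binds cyclin-dependent kinases, measured 8.60 and 8.84 in knockout, against 8.07 and 7.75 in wild type. It rose 1.76-fold (limma adjusted p = 0.0499), barely past the threshold, and a further quantile normalization ended its call (0.0730), as did centring (0.0533), weighting the arrays (0.0515) and leaving out knockout replicate 2 (0.0658). The other probe sets of Cks2 differed by 0.47 and 0.79 in the same direction. The one with 0.47 measured 7.66 and 7.64 in knockout, against 7.14 and 7.22 in wild type, above background on every array. The one with 0.79 measured 5.71 and 5.68 in knockout, against 5.05 and 4.75 in wild type. Its values lay below background on every array, so they carry no fold.

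The remaining mitotic lists held no call, where 2.38% of all genes were called. Limma called 0 of 23 spindle and cytokinesis genes, 1 had an unadjusted p under 0.05, against 26.5% of all genes, and the median was -0.0034. Kif23, a motor of the central spindle, differed by 0.45 (limma adjusted p = 0.123), and Kif18b, which trims astral microtubules, differed by -0.22 (0.384). For condensin and cohesin limma called 0 of 17, and 4 had an unadjusted p under 0.05, which is near the same 26.5%. The median of this list was 0.12. Smc2, the core ATPase of condensin, differed by 0.48 (limma adjusted p = 0.112), and Ncapd2, another condensin subunit, by -0.32 (0.139).

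Regulators that switch mitotic genes on and off, activators and repressors together, were 7 higher and 7 lower. Limma called 0 of these 14 genes, against 2.38% of all genes, and 1 had an unadjusted p under 0.05, against 26.5%. The differences ran from -0.27 to 0.60 with a median of 0.01. Rbl1, which encodes the pocket protein p107 of the DREAM complex, measured 8.75 and 8.66 in knockout, against 8.30 and 7.92 in wild type, a difference of 0.60 (limma adjusted p = 0.0781). Lin54, the subunit of that complex that contacts the CHR, differed by 0.26 (limma adjusted p = 0.218). Foxm1, an activator of mitotic genes chosen for mention after its values were seen, measured 6.19 and 6.43 in knockout, against 6.27 and 6.55 in wild type. All 4 values of Foxm1 lay below background, as for Bub1 and Kif11. Mybl2, the gene of B-Myb and also named after its values were seen, lay above background in all 4 mice. It measured 7.59 and 7.64 in knockout, against 7.41 and 7.72 in wild type (limma adjusted p = 0.859).

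Cdkn2c, the one gene of the 188 that passed as lower in knockout, acts at cell cycle exit. It encodes p18, an inhibitor of Cdk4 and Cdk6. It measured 10.50 and 9.88 in knockout, against 11.45 and 11.40 in wild type. Both knockout mice lay well below the wild type mice, and Cdkn2c fell by 1.24 on the log2 scale (SE 0.20, limma adjusted p = 0.0386). Cdkn2a, which encodes the inhibitors p16 and p19, measured 6.76 and 7.03 in knockout, against 7.39 and 7.55 in wild type, and did not pass (limma adjusted p = 0.0729). Of the 12 genes of inhibitors and cell cycle exit 1 passed, against 2.38% of all genes, and the list median was -0.15. The 6 adipocyte markers, none of which passed, also differed downward, with list means of 12.42 and 11.92 in knockout against 12.78 and 12.64 in wild type, and the part of adipose tissue in the fall of Cdkn2c was not tested.

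Among 18 regulators of G1 and S phase limma called 0, against 2.38% of all genes. Of the 18, 5 had an unadjusted p under 0.05, a share near the 26.5% of all genes, and the median was 0.10. The smallest p values were those of the cyclins D2 and D1, partners of Cdk4 and Cdk6. Ccnd2 measured 12.01 and 12.21 in knockout, against 11.36 and 11.53 in wild type (limma adjusted p = 0.0522). Ccnd1 measured 10.61 and 11.01 in knockout, against 10.10 and 10.10 in wild type (limma adjusted p = 0.0614). Of the 12 alternatives, 5 brought Ccnd2 past the threshold and 3 brought Ccnd1 past it, with adjusted p values from 0.0157 to 0.216 for Ccnd2 and from 0.0055 to 0.26 for Ccnd1. E2f2, an activating E2F factor named after its values were seen, differed in the other direction, with 6.86 and 7.09 in knockout against 7.51 and 7.64 in wild type (limma adjusted p = 0.0627). Neither cyclin gene had overlapping groups, as was so for 60.0% of all genes. Mcm6, a subunit of the helicase that opens DNA for copying, was the 1 call among 31 DNA replication genes, against 2.38% of all genes. Mcm6 rose 1.77-fold, with 7.53 and 7.70 in knockout against 6.74 and 6.83 in wild type (limma adjusted p = 0.0349). Tyms, which makes thymidylate, differed by 0.52 (limma adjusted p = 0.0690), and the list median was 0.11.

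**Figure D5:**
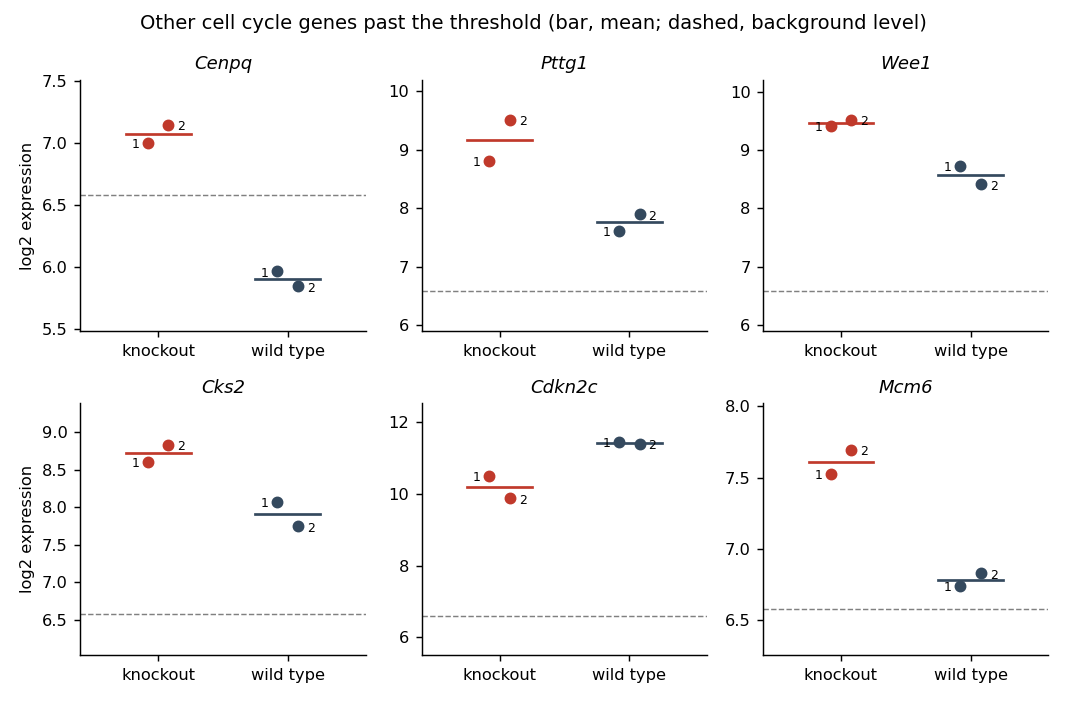
Log2 expression (y axis, a scale of its own in each panel) of the 6 other cell cycle genes that passed the threshold, with knockout mice left of wild type mice. Points are mice with their replicate number, short bars are group means and the dashed line is the background level of 6.58. Knockout and wild type mice are separated in all 6 panels, with Cdkn2c the one that is lower in knockout.

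The promoters of the 6 genes that passed were searched for the same letters. Sequence was at hand for Cenpq, Pttg1, Cks2, Cdkn2c and Mcm6, and of these 5 promoters 0 held CHR letters and 3 held CCAAT. The set of 8 described above held CHR letters in 7. Of 96 promoters of the 5 other mitotic lists, 56.2% held CHR letters, and of 25 promoters of replication genes 28.0% did. The 5 genes were chosen by their values, so this is a description of their sequences with no test. The promoters of Pttg1, at chr11:43425932-43426231 on the minus strand, and of Cenpq, at chr17:40934525-40934824 on the minus strand, are shown with the same capitals, as a gene with no match in the window and a gene with CCAAT alone. Cenpq had CCAAT at 116, 73 and 68 bases before its start.
Pttg1: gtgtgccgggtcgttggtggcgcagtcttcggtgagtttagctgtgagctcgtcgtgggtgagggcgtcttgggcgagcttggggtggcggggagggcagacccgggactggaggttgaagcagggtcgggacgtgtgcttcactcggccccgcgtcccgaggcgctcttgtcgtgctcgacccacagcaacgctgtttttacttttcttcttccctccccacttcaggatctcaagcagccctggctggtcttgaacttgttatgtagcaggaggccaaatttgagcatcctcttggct
Cenpq: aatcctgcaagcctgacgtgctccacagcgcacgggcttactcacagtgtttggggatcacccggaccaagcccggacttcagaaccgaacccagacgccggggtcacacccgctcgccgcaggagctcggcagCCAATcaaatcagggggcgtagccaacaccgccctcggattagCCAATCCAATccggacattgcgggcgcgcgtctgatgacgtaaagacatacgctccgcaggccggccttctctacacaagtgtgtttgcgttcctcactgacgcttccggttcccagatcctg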

How the data were processed

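The labels' protocols state that 500 ng of total RNA per ureter was labelled for Affymetrix whole-transcript arrays. The authors deposited log2 expression values, 1 per probe set and array; the submitters' processing notes name RMA, limma 3.12.1 and R 2.15.0, with no genome build. Of 23309 probe sets the platform annotation gives 1 symbol to 20728, several to 1174 and none to 1407. Taking each gene's brightest probe set by the mean of the 4 arrays left 19296 genes. Background, log2 6.58, is the 95th percentile of the means of 1012 olfactory receptor genes.

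The groups were compared in 1 fit over all genes with limma 3.58.1 (R 4.3.3; lmFit, then eBayes without trend or robustness), Benjamini-Hochberg adjustment, a threshold of 0.05 and moderated SE and 95% intervals. Mice of a group are biological replicates per the labels. A group below background on both arrays allows only a bound on the fold, set against the background level, and no fold is given where both groups lie there. Named genes are the 9 mitotic genes and both deleted microRNA genes. In each cell cycle list the 2 of smallest p above background are named, with all list genes past the threshold. Of 194 listed genes 188 were tested. Genes and lists were chosen with earlier results of these data known. The fit was tested on simulated data. Promoters are from RefSeq, the first given per gene. Alternatives covered the mouse numbers as a replicate block, dim genes filtered out, quantile normalization, median centring, averaged probe sets, eBayes with trend or robust, weighted arrays, other background levels and each mouse left out.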

Additional observations from a re-analysis of the deposited data

How the results depend on the processing

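Under each of the 12 alternatives 0 mitotic genes passed. Leaving out 1 mouse at a time, their median difference ran from -0.074 to 0.40, Mki67 from -0.0062 to 0.44, Top2a from -0.074 to 0.42, Ccna2 from -0.27 to 0.40, Plk1 from -0.13 to 0.17 and Prc1 from -0.19 to 0.19, each changing sign. Centring on array medians turned Ccna2 to -0.0020 and Plk1 to -0.048, and a further quantile normalization turned Prc1 to 0.14. Bub1, Kif11, Cdk1 and Aurkb kept their direction wherever they were tested, but with 1 mouse left out Bub1 ran from 0.038 to 0.42, Kif11 from 0.020 to 0.40, Cdk1 from -0.34 to -0.093 and Aurkb from -0.23 to -0.043.

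Of the other cell cycle genes 6 passed; the count was 13 with a replicate block and 3 with a further quantile normalization, and 0 to 13 with 1 mouse left out. Over all genes 367 were higher and 92 lower; the counts were 1164 and 758 with a replicate block, 165 and 50 with a further quantile normalization, 655 and 247 with robust eBayes, and with 1 mouse left out 0 to 1115 higher and 0 to 629 lower. A filter on dim genes gave 147 lower and centring 148 lower. Without wild type replicate 1 or wild type replicate 2 limma passed 0 of all genes, Mir145a included (adjusted p = 0.183 without replicate 1), with 4253 and 3079 at an unadjusted p under 0.05; the cause was not tested. The replicate block changed no call among the mitotic genes; deviations of same-numbered mice correlated at -0.028 over genes, so the numbers are not taken to pair the mice. With the background at the 90th percentile of the olfactory receptor genes 6 mitotic genes lay above it, and at the 99th 1 did, where 5 had. The distance of these genes from background, with 2 mice a group, limits what could be detected.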
